A study of Homo sapiens with 132 samples.

Results

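Hs746T is an established gastric cancer cell line, and the data described here are its response to epidermal growth factor (EGF). Of the 132 libraries of the series, the 12 with the cell line label Hs746T and the treatment label EGF or untreated were taken. They form 4 groups of 3 replicates, untreated and EGF at 4 h and at 24 h. EGF was given at 5 ng/ml without any inhibitor, untreated cells received no agent, and both were grown in DMEM with 10% FCS, so serum was present in every group. The series design calls the replicates biological, and all results come from 1 cell line. Whether Hs746T cells answer EGF at all is the question of the comparison.

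EGF binds the receptor EGFR, which pairs with itself or with ERBB2, ERBB3 or ERBB4 and switches on the RAS-RAF-MEK-ERK (MAPK) cascade and the PI3K-AKT pathway. In responsive epithelial cells the MAPK cascade turns on immediate early genes such as FOS and EGR1, then its own inhibitors, the dual specificity phosphatases and the Sprouty proteins, and the EGFR ligands AREG, HBEGF and TGFA. The PI3K-AKT pathway keeps FOXO transcription factors out of the nucleus and so lowers the genes that these factors turn on. Hs746T is known for an amplified and splice-mutated MET gene, which encodes the receptor of hepatocyte growth factor.

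The 12 libraries held 25832557 to 60661089 counts on genes, and the shallowest was replicate 2 of the untreated cells at 24 h. A floor of 3 counts corresponded to 0.0495 to 0.116 CPM (counts scaled by library size), which covers counting error only. Levels below are CPM after TMM scaling, and log2FC is EGF minus untreated. RNA of the receptor was there: EGFR was measured at 244 to 306 CPM in the 12 libraries, scaled by library size alone. In the 12 EGF and untreated libraries of MKN1 it was measured at 246 to 585 CPM. MKN1 is a gastric cancer cell line given the same EGF dose but grown in RPMI medium. MET stood at 3650 to 5520 CPM in Hs746T and at 74.8 to 219 CPM in MKN1, with no overlap. As to the labelled cell type, 10 of 12 mesenchymal markers reached 1 CPM in every Hs746T library. The highest were FN1 at 1910 to 3340 CPM and VIM at 1400 to 1960 CPM. Of 12 epithelial markers 8 reached 1 CPM in every library. Highest among these were KRT8 at 321 to 443 CPM and CLDN4 at 268 to 421 CPM, but E-cadherin (CDH1) did not get beyond 1.1 CPM. Of the mesenchymal markers, TWIST1 did not get beyond 0.186 CPM and LUM lay between 0 and 1.29 CPM. The 6 leukocyte markers summed to 0.116 to 0.377 CPM in untreated and 0.202 to 0.488 CPM in EGF-treated cells, and the defining leukocyte gene PTPRC lay between 0 and 0.189 CPM. The 5 endothelial markers summed to 95.7 to 230 CPM in untreated and 120 to 256 CPM in EGF-treated cells, nearly all of it PECAM1.

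The main fit called very few genes with EGF in Hs746T cells, while the count at 4 h depended on the block, as given below. With both times fitted together and time and replicate number as blocks, 2 of 17594 genes tested (0.0114%) passed an adjusted p of 0.05, and both fell: FBXO32 and CPA4. No gene rose past the threshold, and no called gene had a log2FC beyond 1 in either direction. Without adjustment, 1147 genes (6.52% of those tested) had a p below 0.05 in edgeR's test. At 4 h alone 0 genes (0%) were called, with 2060 at an unadjusted p below 0.05, and at 24 h alone 0 genes (0%), with 336. DESeq2 called 7 genes for both times, 24 at 4 h and 4 at 24 h. The change from 4 h to 24 h gave 0 called genes (0%) in edgeR's test, 766 at an unadjusted p below 0.05, and 1 called gene in DESeq2.

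The replicate numbers paired the EGF and untreated libraries of a time, so the same tests were run with a block for each replicate at each time. This block gave 5 genes for both times (0.0284%), all lower: FBXO32, CPA4, BMF, NEAT1 and LAMA5. At 24 h it gave 7 genes (0.0398%), all lower, at 4 h 921 genes (5.23%), 678 higher and 243 lower, and for the change between the times 2 genes (0.0114%), GPNMB and RBM14-RBM4, a readthrough gene that shares exons with its neighbours, so its count is uncertain. The 921 genes at 4 h are described further below, with the gene lengths that go with them. Both calls of the main test depended on single libraries: without 1 library the count for both times lay between 0 and 4. It fell to 0 without replicate 3 of EGF or replicate 1 or 3 of untreated cells at 4 h, or without replicate 1 or 3 of EGF or replicate 2 or 3 of untreated cells at 24 h, and to 1 without replicate 1 of untreated cells at 24 h.

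The precision of the fit bounds what could have gone unseen. For both times the 95% interval of the log2FC lay within 1 in either direction for 16802 genes, 95.5% of those tested, and within 0.5 for 13622 genes (77.4%). Among the 13172 genes with a mean log2 CPM above 0, these shares were 99.9% and 97.5%. At 4 h alone 99.7% of these better measured genes had an interval within 1, and at 24 h alone 99.7%. A log2FC of 1 in either direction was thus outside the interval for nearly all well measured genes.

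FBXO32 (ENSG00000156804; chromosome 8, 123497889 to 123541206, minus strand, GRCh38) encodes atrogin-1, a ubiquitin ligase subunit and a known FOXO target. At 4 h its level was 134.8, 95.2 and 110.6 CPM in the untreated libraries and 104.9, 66.4 and 76.3 CPM with EGF. At 24 h it was 125.8, 112.4 and 98.1 CPM untreated and 97.95, 75.8 and 63.4 CPM with EGF. EGF was lower in all 6 same-numbered pairs, and at 24 h every EGF library lay below every untreated one, whereas at 4 h the groups overlapped. The log2FC was -0.49 ± 0.063 (SE) over both times (95% interval -0.63 to -0.36, adjusted p = 0.020), -0.47 ± 0.091 at 4 h and -0.52 ± 0.091 at 24 h. Leaving out each library in turn kept the log2FC between -0.53 and -0.45, with an adjusted p up to 0.126.

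BMF, a BH3-only protein that promotes apoptosis and another gene known to be controlled by FOXO factors, showed the same direction but did not pass (ENSG00000104081; chromosome 15, 40087890 to 40108892, minus strand). The untreated libraries held 8.54, 3.59 and 3.35 CPM at 4 h and 10.2, 5.67 and 3.55 CPM at 24 h. With EGF they held 6.55, 2.56 and 2.08 CPM at 4 h and 6.84, 3.56 and 2.34 CPM at 24 h. The groups overlapped at both times because replicate 1 was high in every group, while all 6 pairs were lower with EGF. Its log2FC was -0.55 ± 0.083 (adjusted p = 0.056, and 0.0044 with the block per time).

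CPA4 (ENSG00000128510; chromosome 7, 130293134 to 130324180, plus strand) encodes a secreted metallocarboxypeptidase. Its level was 36.8, 18.5 and 21.3 CPM in untreated and 31.2, 15.5 and 15.6 CPM in EGF-treated cells at 4 h. At 24 h it was 30.4, 16.6 and 16.7 CPM in untreated and 23.6, 13.01 and 12.3 CPM in EGF-treated cells. Here too replicate 1 was the highest of each group, so that the groups overlapped, but EGF was lower in 6 of 6 pairs. The log2FC was -0.34 ± 0.046 (95% interval -0.44 to -0.25, adjusted p = 0.020), and it lay between -0.37 and -0.32 without any 1 of the libraries.

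Because CPA4 was called and AREG and CXCL8 are known EGF targets described below, the 250 bases before their starts are shown, read from RefSeq (GRCh38.p14, plus strand for all). Capitals mark the AP-1 motif (TGACTCA or TGAGTCA, which is the same site on the other strand), the CRE (TGACGTCA, its own reverse complement) and TATAAA, searched on the gene's strand only. AP-1 is the FOS-JUN factor that the MAPK cascade activates, and the CRE is the site of CREB and ATF factors. The motifs do not overlap in these windows. The windows end at the RefSeq start, and GENCODE places the gene starts further upstream, so the last 27 bases of the CPA4 window, 2 of the AREG window and 63 of the CXCL8 window lie inside the gene by GENCODE.
CPA4, chr7:130292911-130293160: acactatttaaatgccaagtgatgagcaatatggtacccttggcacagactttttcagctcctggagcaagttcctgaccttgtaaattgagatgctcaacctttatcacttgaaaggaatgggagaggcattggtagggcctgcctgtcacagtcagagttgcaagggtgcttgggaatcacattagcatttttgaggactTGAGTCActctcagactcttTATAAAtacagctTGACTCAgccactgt
AREG, chr4:74444886-74445135: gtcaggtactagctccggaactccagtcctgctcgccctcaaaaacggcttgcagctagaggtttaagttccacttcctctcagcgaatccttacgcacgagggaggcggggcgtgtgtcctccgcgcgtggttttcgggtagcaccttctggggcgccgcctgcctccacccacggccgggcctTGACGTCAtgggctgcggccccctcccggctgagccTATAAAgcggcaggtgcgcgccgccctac
CXCL8, chr4:73740319-73740568: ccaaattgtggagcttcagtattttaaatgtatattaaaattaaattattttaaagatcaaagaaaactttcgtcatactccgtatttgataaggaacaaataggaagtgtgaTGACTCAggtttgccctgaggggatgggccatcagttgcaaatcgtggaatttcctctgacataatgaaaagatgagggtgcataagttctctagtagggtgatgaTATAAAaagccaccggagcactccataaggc

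The CPA4 window held the AP-1 letters at 2 places, the CXCL8 window at 1 and the AREG window none. Over all 35116 windows of 250 bases in the table, 4.2% held the AP-1 letters at least once and 0.182% at 2 or more places, 1.65% held the CRE and 6.8% held TATAAA. A match is a description of the letters only. CPA4 fell with EGF, and AREG and CXCL8 had positive log2FC at 4 h that did not pass the test.

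Of the 10 genes with the smallest p for both times, 9 were lower with EGF. Their p values come from the same 6 pairs, so the agreement of the pairs is no further evidence. Besides FBXO32, CPA4 and BMF they were the nuclear long noncoding RNA NEAT1, the desmosomal plakin PPL, the transporter SLC12A8, the collagen chain COL1A2, the microtubule linker CLIP2, KLHL24 (a substrate adaptor of a ubiquitin ligase) and CD79A. None of the last 7 passed: NEAT1 had a log2FC of -0.32 ± 0.052 (adjusted p = 0.099) and the others had adjusted p values of 0.279 to 0.716. CD79A, the 1 positive member at 0.92 ± 0.22, was measured at only 0.153 to 0.532 CPM. Its EGF libraries lay above its untreated libraries at both times.

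**Figure D1:**
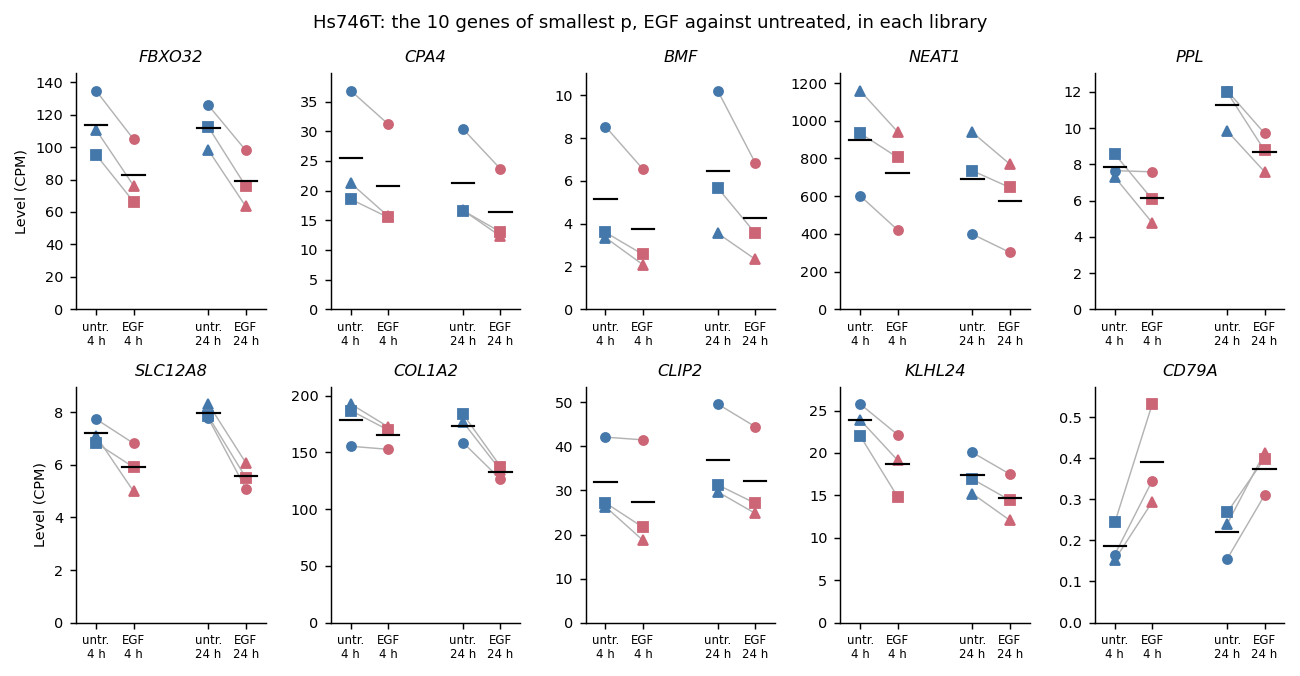
Levels (CPM, linear axes from 0) of the 10 genes with the smallest p in the 12 Hs746T libraries, untreated in blue and EGF in red. Grey lines join same-numbered libraries (circle, replicate 1; square, replicate 2; triangle, replicate 3), and black bars are means of 3. FBXO32, for example, lies between 95.2 and 134.8 CPM untreated and between 63.4 and 104.9 CPM with EGF.

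The matrix gene COL1A2 had the smallest p at 24 h. It was measured at 158.6, 183.7 and 176.7 CPM in untreated and at 126.3, 137.5 and 134.2 CPM in EGF-treated cells, with no overlap, and its log2FC was -0.38 ± 0.054 (adjusted p = 0.061, and 0.00071 with the block per time). At 4 h its log2FC was -0.11 ± 0.053. GPNMB, a lysosomal and membrane glycoprotein, followed at 24 h with 42.1, 28.1 and 27.3 CPM untreated and 33.8, 18.5 and 18.7 CPM with EGF. Its log2FC was -0.48 ± 0.070 at 24 h (adjusted p = 0.061, and 0.0036 with the block) and 0.10 ± 0.068 at 4 h. The other 5 genes called at 24 h with the block were FBXO32, CPA4, BMF, SLC12A8 and THBS1 (thrombospondin), the last with a log2FC of -0.35 ± 0.073 at 24 h and 0.01 ± 0.070 at 4 h in the main fit. GPNMB, THBS1 and LAMA5 (a laminin chain) fall outside the rule for naming genes and were chosen after their values were seen.

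The genes that make up the EGF pathway were then read from lists. The receptors came first. None of the 4 ERBB genes was called for both times, against the background of 0.0114%, and their median log2FC was -0.04 beside -0.001 over all genes. EGFR was measured at 267.7, 278.9 and 258.8 CPM in untreated and 277.4, 251.7 and 256.6 CPM in EGF-treated cells at 4 h. At 24 h it was 268.5, 302.3 and 278.2 CPM untreated and 261.9, 297.1 and 289.8 CPM with EGF. The groups overlapped at both times, and the log2FC for both times was -0.02 (adjusted p = 0.943). ERBB2, the partner receptor HER2, had a log2FC of -0.09 (adjusted p = 0.716). ERBB3 and ERBB4 were near 1 CPM, with log2FC of -0.06 and 0.02. The relay from receptor to nucleus, 27 genes from SHC1 and GRB2 to ELK1 and SRF, had 0 called genes and log2FC from -0.07 to 0.12.

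Of the 10 EGFR ligands and neuregulins tested, 0 were called, and the median log2FC was 0.04 at 4 h and 0.01 at 24 h. AREG (amphiregulin) was measured at 7.03, 7.44 and 7.28 CPM in untreated and 8.53, 8.85 and 9.89 CPM in EGF-treated cells at 4 h. All 3 EGF libraries lay above all untreated ones, yet the log2FC of 0.32 ± 0.084 did not pass (adjusted p = 0.317). HBEGF, the heparin-binding ligand, was likewise without overlap at 4 h, at 49.2, 46.9 and 49.1 CPM untreated and 56.9, 57.9 and 58.7 CPM with EGF. Its log2FC at 4 h was 0.26 ± 0.064 (adjusted p = 0.317). With the block per time both were called at 4 h, at adjusted p values of 0.028 (AREG) and 0.0126 (HBEGF), beside a background of 3.85% of all genes called higher. Neither passed in the same block fitted on all 42 Hs746T libraries (0.159 and 0.0647), and HBEGF did not pass in DESeq2 (0.0672). At 24 h their log2FC were 0.02 and -0.01, and the groups overlapped. TGFA and EREG, which MKN1 cells raised, had log2FC of 0.06 and -0.04 at 4 h.

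DUSP6, the phosphatase that switches off ERK and a standard readout of the MAPK cascade, had the smallest p of all genes at 4 h in the main fit, though not with the block per time, where FBXO32 had a smaller one (ENSG00000139318; chromosome 12, 89347232 to 89353271, minus strand). Its level was 35.95, 41.7 and 43.2 CPM in untreated and 43.7, 51.3 and 56.5 CPM in EGF-treated cells at 4 h, and the EGF libraries lay above the untreated ones by a narrow margin. The log2FC was 0.32 ± 0.056 (95% interval 0.20 to 0.44), with an adjusted p of 0.317 in edgeR's test, 0.0103 with the block per time, 0.0108 with the block on all 42 libraries and 0.0038 in DESeq2. At 24 h the levels were 33.69, 43.998 and 42.34 CPM untreated and 34.9, 40.4 and 44.4 CPM with EGF, overlapping, with a log2FC of -0.0002. Over the feedback inhibitors tested the log2FC at 4 h ran from -0.15 to 0.335, so DUSP6 did not have the largest. SPRY2 had a log2FC of 0.14 ± 0.064 at 4 h, and SPRY4, PHLDA1 and DUSP5 had log2FC of 0.05, 0.05 and 0.08. Of the 14 feedback inhibitors tested, 0 were called in the main fit. With the block at 4 h 1 of them (DUSP6) was called higher, where 3.85% of all genes were. The list median was 0.07 at 4 h and 0.03 at 24 h.

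Among the 25 immediate early genes tested, 0 were called, and the median log2FC was 0.05 at 4 h and 0.002 at 24 h. FOS was measured at 7.23, 5.56 and 5.61 CPM in untreated and 8.62, 7.27 and 7.05 CPM in EGF-treated cells at 4 h. All 3 pairs were higher with EGF while the groups overlapped, and the log2FC was 0.32 ± 0.11 (adjusted p = 0.317, 0.0371 with the block and 0.159 with the block on all 42 libraries). EGR1 stood at 7.95, 4.27 and 4.33 CPM untreated and 7.71, 3.90 and 4.85 CPM with EGF, with a log2FC of -0.001 (95% interval -0.34 to 0.34). MYC and FOSL1 had log2FC of 0.08 and 0.13 at 4 h, and IER3, an inhibitor of cell death, had 0.23 ± 0.085 (adjusted p = 0.34, 0.0157 with the block and 0.16 with the block on all 42 libraries).

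Of the 15 other MAPK target genes tested, 0 were called and 14 had a log2FC above 0 at 4 h, with a median of 0.10. In 8 of them all 3 pairs were higher at 4 h, a pattern that 18.7% of all tested genes had. With the block 2 of the 15 were called at 4 h, where 3.85% of all genes were called higher: PLAUR (the urokinase receptor) and HMGA2, with main log2FC of 0.27 ± 0.081 and 0.15 ± 0.052. CCND1 (cyclin D1) and ETV5 had log2FC of 0.08 and 0.11. CXCL8, the chemokine interleukin-8, was measured at 8.43, 12.02 and 10.9 CPM in untreated and 10.6, 15.8 and 14.2 CPM in EGF-treated cells at 4 h. Its pairs were all higher while its groups overlapped, and the log2FC was 0.37 ± 0.13 (adjusted p = 0.327, 0.0126 with the block and 0.146 with the block on all 42 libraries). At the receptor, the 10 EGFR inhibitors tested held 0 called genes, and ERRFI1, a protein that EGF induces and that blocks EGFR, had a log2FC of 0.15 ± 0.057 at 4 h.

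**Figure D2:**
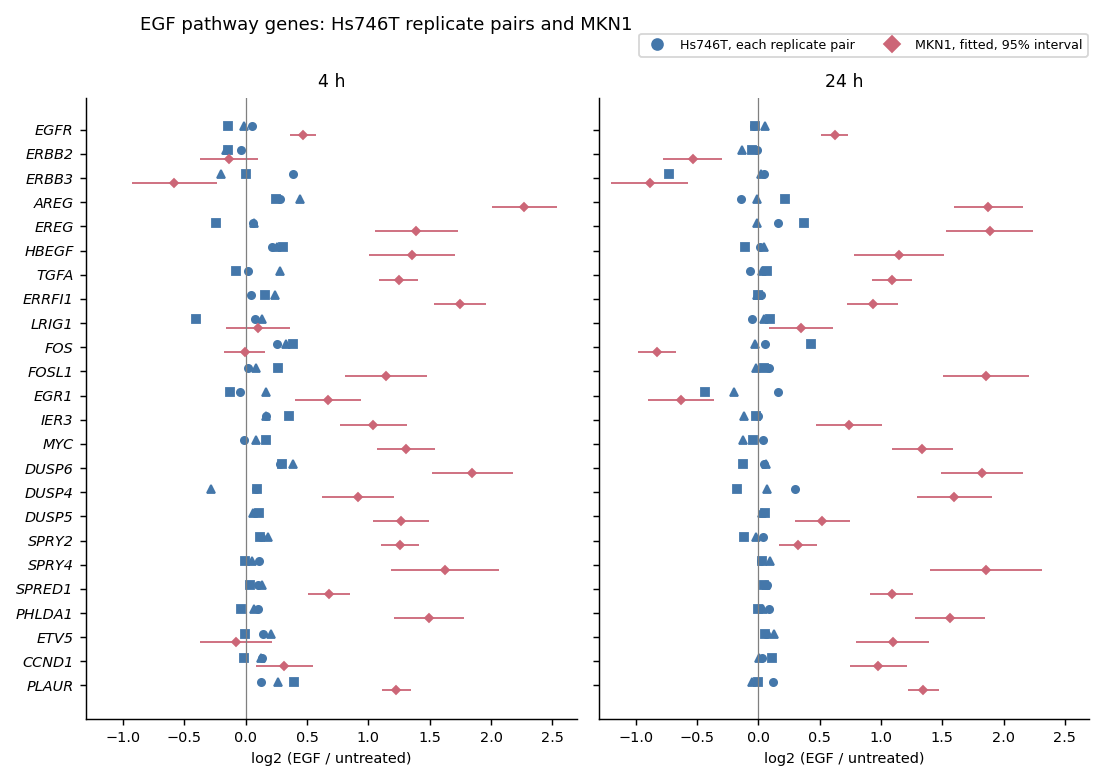
Log2 (EGF / untreated) of EGF pathway genes at 4 h (left) and 24 h (right). Blue symbols are the 3 same-numbered pairs of Hs746T libraries (circle, square and triangle for replicates 1, 2 and 3), and red diamonds are the fitted MKN1 values with 95% intervals. The Hs746T pairs of DUSP6 lie between 0.28 and 0.39 at 4 h, where MKN1 lies at 1.85.

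Of 20 S phase genes and 20 G2/M genes, 0 were called, with median log2FC of 0.07 and 0.06 for both times. In 14 of the 20 S phase genes all 3 pairs were higher at 4 h, as in 18.7% of all genes, and with the block 4 were called higher at that time, against 3.85% of all genes. All 20 G2/M genes had a log2FC above 0 at 24 h, and in 14 of them all 3 pairs were higher at that time, as in 14.5% of all genes. The 17 cholesterol synthesis genes, 17 glycolysis and hypoxia genes and 15 ATF4 target genes tested had 0 called genes and medians of -0.02, 0.03 and 0.07. All 10 interferon-stimulated genes tested had a log2FC above 0 at 4 h, with a median of 0.20, beside -0.02 at 24 h, and 3 of the 10 were called higher with the block at 4 h, against 3.85% of all genes. The 14 other receptor tyrosine kinases had a median of -0.03, and MET had a log2FC of -0.02 ± 0.056 at 4 h and 0.03 ± 0.056 at 24 h. The 15 matrix and wound genes had a median of 0.004, the 19 chemokine and cytokine genes 0.02, the 12 epithelial markers 0.02 and the 11 mesenchymal markers -0.005. The 3 endothelial markers tested had a median of -0.03, and the 1 leukocyte marker tested had a log2FC of -0.34. In each of these lists 0 genes were called in the main fit. The block at 4 h also called higher 2 glycolysis and hypoxia, 2 ATF4 target and 2 chemokine and cytokine genes, against 3.85% of all genes. It did so for 1 G2/M gene and 1 epithelial marker. It called 2 of the 14 other receptor tyrosine kinases lower, where 243 of all 17594 genes were called lower. At 24 h the block called lower 2 matrix and wound genes and, among the mesenchymal markers, COL1A2, where 0.0398% of all genes were called.

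The 921 genes called at 4 h with the block per time went with gene length. The 678 called higher had a median summed exon length of 2465.5 bases, the 243 called lower 7078 bases, and the genes not called 4380 bases. The calls were small, with a median absolute log2FC of 0.26 among those higher and 0.26 among those lower. Of the 74 genes of ribosomal proteins tested, 64 were among those called higher, against 3.85% of all genes. The ribosomal protein list was added after the data were seen.

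These shifts differed between the replicate pairs. The median log2 difference of the ribosomal protein genes was 0.064 in replicate 1, 0.57 in replicate 2 and 0.30 in replicate 3 at 4 h, and 0.061, 0.015 and -0.060 at 24 h. The shortest quintile of genes had a median of 0.12 in replicate 2 and 0.067 in replicate 3 at 4 h, the longest quintile had -0.10 and -0.036, and in replicate 1 these medians were -0.012 and 0.0016. A correction of every library for gene length did not lower the count at 4 h, which then was 1188 (914 higher, 274 lower). Leaving out replicate 1 of EGF at 4 h raised the count of the main fit at 4 h from 0 to 1512. Leaving out any other single library gave 0, as did leaving out every library of replicate 1. With no filter and all libraries kept the count was 598. DUSP6 kept a log2FC of 0.32 at 4 h after the length correction (adjusted p = 0.0015), HBEGF had 0.23 (0.0045) and AREG 0.26 (0.055). The part of gene length and of the ribosomal protein genes in the calls at 4 h was not tested further.

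**Figure D3:**
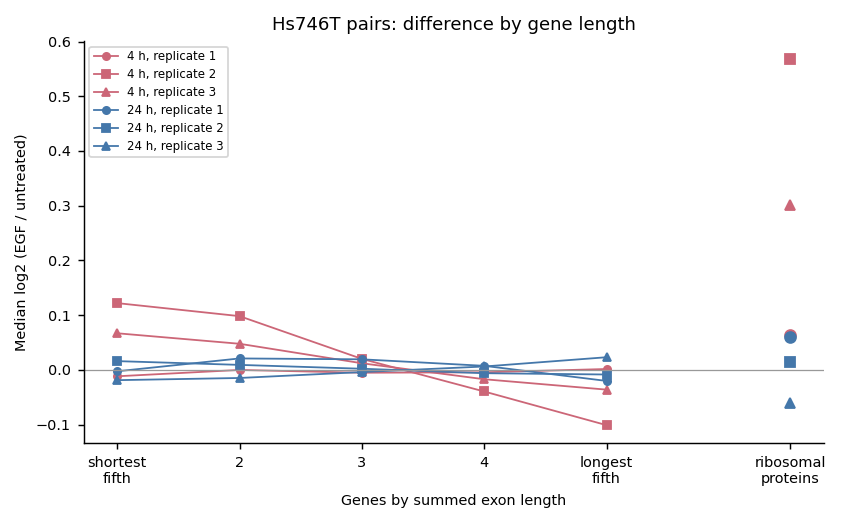
Median log2 (EGF / untreated) in each same-numbered pair of Hs746T libraries, for genes in quintiles of summed exon length and, at the right, for 74 ribosomal protein genes. Red is 4 h and blue is 24 h, with circle, square and triangle for replicates 1, 2 and 3. Replicates 2 and 3 at 4 h slope from 0.12 and 0.067 in the shortest quintile to -0.10 and -0.036 in the longest.

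MKN1 cells were given the same EGF dose for the same times, in RPMI medium, and were tested in the same way. In MKN1, 6713 of 18206 genes tested (36.9%) were called for both times, 3318 higher and 3395 lower, and 659 (3.62%) also had a log2FC beyond 1. At 4 h 15.4% and at 24 h 52.8% of the genes were called. With scaling by library size alone the MKN1 median log2FC was -0.17, beside -0.02 with TMM, and the split was 1597 higher and 6759 lower. In Hs746T the median was -0.02, beside -0.001 with TMM. The difference between the lines was tested in 1 fit of all 24 libraries. The response differed for 3192 of 19924 genes (16%), 2019 with the more positive log2FC in MKN1 and 1173 with the more negative. Library size alone gave 1019 and 3173.

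DUSP6 rose by 1.85 ± 0.15 on the log2 scale in MKN1 at 4 h and AREG by 2.27 ± 0.12, where Hs746T had 0.32 for each. Over both times the difference MKN1 minus Hs746T was 1.70 ± 0.14 for DUSP6 (adjusted p = 2.7e-08), 1.94 ± 0.14 for AREG (5.4e-09), 1.32 ± 0.099 for MYC (7.1e-09) and 1.71 ± 0.19 for SPRY4 (1.4e-06). Of the 14 feedback inhibitors, 10 had the more positive response in MKN1, as had 11 of the 15 other MAPK target genes and 10 of the 25 immediate early genes, against 10.1% of all genes. The more negative response in MKN1 was called for 0, 0 and 2 of these genes, against 5.89% of all genes. EGR1 did not pass the test of the difference (0.08, 95% interval -0.52 to 0.68). FOS differed the other way, by -0.64 ± 0.17 (adjusted p = 0.0133), and its log2FC in MKN1 was -0.82 at 24 h.

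The genes with the largest changes in MKN1, at a mean log2 CPM above 1 there, had small log2FC in Hs746T. SERPINB2, RGS4, HAS2, PRR9 and ESM1 rose in MKN1 with log2FC of 2.92 to 3.39. In Hs746T they had log2FC of 0.11, 0.12, 0.13, 0.39 and 0.17 over both times, none of them called. RGS4, a regulator of G protein signalling, and ESM1 (endocan) were well measured in Hs746T, with 95% intervals of 0.03 to 0.20 and 0.05 to 0.29. Among genes with a mean log2 CPM above 1 in MKN1, those that fell furthest there were TNFSF10 (TRAIL), BMF, RNF144B, TRMT9B and SAMD11, with log2FC of -2.17 to -1.85. Of these BMF had -0.55 in Hs746T and the others 0.19, -0.09, -0.05 and -0.17, again none called. All 10 differed between the lines in the test of the difference, which uses the MKN1 libraries they were picked from. Their passing was thus in large part set by that choice.

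Of the 284 genes that rose beyond a log2FC of 1 in MKN1, 233 were tested in Hs746T. There 0 were called and the median log2FC was 0.04, beside 1.29 in MKN1. In 148 of them (63.5%) the Hs746T value was above 0, as in 49.6% of all tested genes. Of the 375 that fell in MKN1, 229 were tested, 0 were called, the median was -0.08 beside -1.22 in MKN1, and 162 (70.7%) were below 0, as were 50.4% of all tested genes. The 95% interval in Hs746T lay within 1 for 217 and 199 of these genes, and the difference between the lines passed the test for 215 and 153. Of all genes, 10.1% were called more positive and 5.89% more negative in MKN1. The genes were picked for their change in the same MKN1 libraries, so passing was in large part set by that choice.

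**Figure D4:**
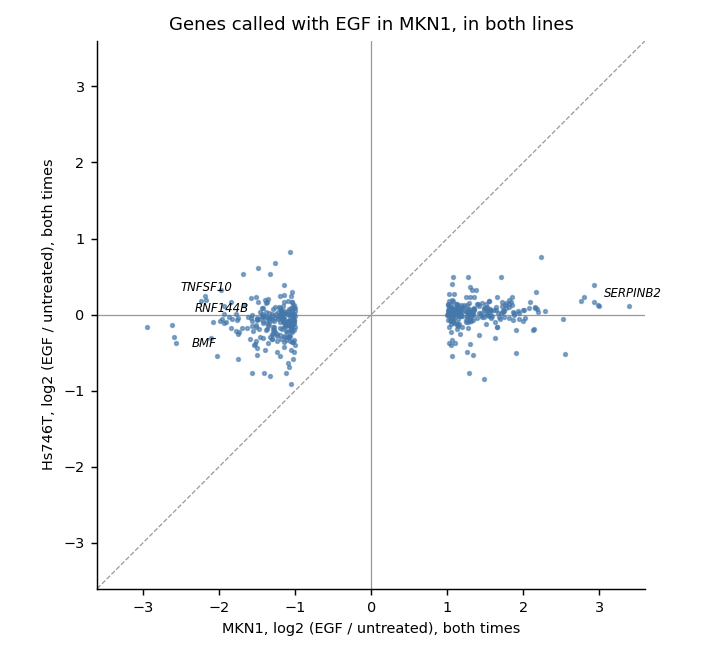
Log2 (EGF / untreated) over both times in MKN1 (x axis) and Hs746T (y axis) for the 462 genes called in MKN1 with a log2FC beyond 1 and tested in Hs746T, 1 point a gene. The dashed line marks equal change; the points lie along the horizontal axis, between -0.92 and 0.82 in Hs746T.

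FBXO32 fell in both lines. It fell by 0.52 on the log2 scale in MKN1 (SE 0.080, adjusted p = 0.00067), and the difference from Hs746T was -0.01 with a 95% interval of -0.23 to 0.21. PPL, at -0.31 in MKN1 (adjusted p = 0.0088), also did not pass the test of the difference (0.08, interval -0.15 to 0.30). CPA4 did differ: it had a log2FC of 0.16 in MKN1 (adjusted p = 0.119), which is 0.52 ± 0.090 above Hs746T (adjusted p = 0.00038). CLIP2 and SLC12A8 rose in MKN1, by 0.26 and 0.48, and differed from Hs746T by 0.52 and 0.91. KLHL24 fell further in MKN1, by 0.76, with a difference of -0.44 (adjusted p = 0.0326).

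The Hs746T libraries with the EGFR antibody cetuximab (Cet, 1 µg/ml) share none of the 12 libraries above. They hold a further pair of groups with and without EGF. The antibody to the receptor was present in both groups, so this pair does not repeat the comparison above. EGF + Cet against Cet called 0 of 17545 genes (0%) for both times, with 220 at an unadjusted p below 0.05, and DESeq2 called 0 as well. FBXO32 had a log2FC of -0.18 ± 0.054 (95% interval -0.30 to -0.06) and CPA4 of -0.16 ± 0.068 (interval -0.30 to -0.01). Both were lower in 6 of 6 same-numbered pairs. These are 3 replicate numbers at 2 times and so not 6 independent pairs, and in edgeR's test neither gene passed (adjusted p = 1.0 for each). DUSP6, AREG and HBEGF had log2FC of -0.04, 0.06 and -0.01 with cetuximab, averaged over both times, which mixes in 24 h. At 4 h AREG was measured at 7.10, 8.54 and 7.61 CPM with Cet and 8.36, 9.14 and 8.75 CPM with EGF + Cet, higher in all 3 pairs with overlapping groups. Mean levels at 4 h with Cet and with EGF + Cet were 43.1 and 43.4 CPM for DUSP6 and 53.9 and 52.9 CPM for HBEGF. The 4 h values were not tested on their own.

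Across all 42 Hs746T libraries, scaled together, FBXO32 was lowest with EGF at both times. At 4 h it was 82.8 ± 20.6 CPM (SD, n = 3) with EGF and 113.7 ± 20.01 untreated, 105.7 ± 24.1 with EGF + Cet and 113.4 to 122.7 in the mean of the other 4 treatments. At 24 h it was 78.9 ± 17.5 CPM with EGF, 111.9 ± 13.8 untreated, 100.7 ± 19.9 with EGF + Cet and 103.3 to 113.0 in the others. Replicate 1 was the highest in every condition, so the SD holds the replicate differences as well. CPA4 did not single out EGF: its mean at 24 h was 16.3 ± 6.4 CPM with EGF, 16.97 ± 9.2 with afatinib (Afa, 0.5 µM) and 21.2 ± 7.9 untreated. DUSP6 at 4 h was 50.6 ± 6.2 CPM with EGF, 50.3 ± 5.0 with afatinib and 50.1 ± 8.0 with trastuzumab (Tra, 5 µg/ml) + Afa, beside 40.3 ± 3.8 untreated and 43.4 ± 5.0 with EGF + Cet. The comparisons with untreated cells share those libraries, so these levels are given side by side without a test.

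**Figure D5:**
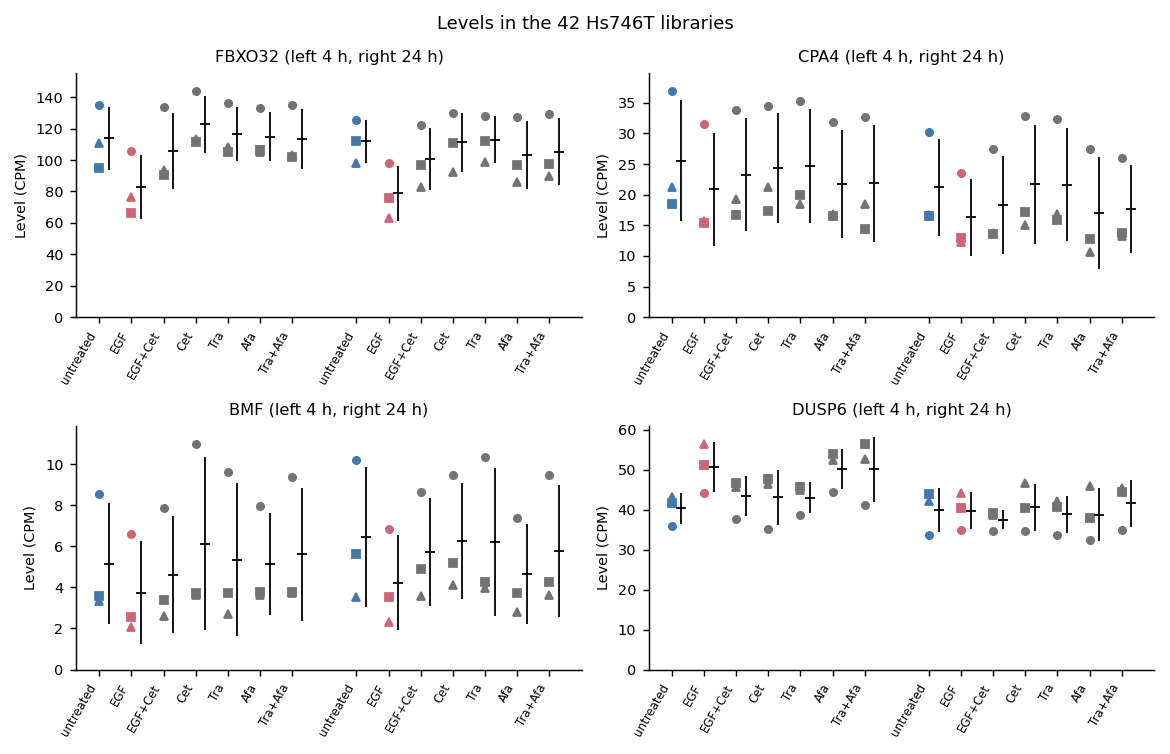
Levels (CPM, linear axes from 0) of FBXO32, CPA4, BMF and DUSP6 in all 42 Hs746T libraries by treatment, 4 h at the left and 24 h at the right of each panel. Symbols are the 3 replicates (circle, square and triangle), with untreated in blue, EGF in red and other treatments in grey, and bars are mean and SD. FBXO32 with EGF has the lowest mean at each time, 82.8 and 78.9 CPM.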

How the data were processed

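The authors purified polyadenylated RNA from treated cells, made directional libraries and sequenced them paired end. Per the labels, reads were trimmed with Trim Galore and aligned with STAR to hg38. The counting program and its annotation are not given in the sources used here. The deposited files hold raw counts per Ensembl gene identifier, 1 file a library, without normalization. Identifiers were matched to GENCODE release 29 (GRCh38), and the 8404 without a match held 0.0369% of the counts. Counts on the 37 mitochondrial identifiers were 0 in every library, so RNA quality could not be read from them. Replicates differed by at least 6.37 times the sampling noise, so each was counted as 1 sample.

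Counts were tested in R 4.3.3 with edgeR 4.0.16 (filterByExpr with a minimum count of 10 and total of 15, TMM scaling, glmQLFit and glmQLFTest). The main fit had time and replicate number as additive blocks. A gene was called at a Benjamini-Hochberg adjusted p below 0.05, and log2 CPM used a prior count of 2. MKN1 was fitted alike. The difference between lines used blocks of cell line by time and cell line by replicate. Alternatives were other blocks, all 42 Hs746T libraries, DESeq2 1.42.0, library size scaling, other filters, and leaving out libraries. The length correction was chosen after seeing the data. The code was tested on simulated data.

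Same-numbered EGF and untreated libraries of a time deviated together from their group means (Pearson's r across genes 0.435 to 0.755, always highest for the same number). Across the times r was 0.0963 to 0.671, lowest for replicate 2 (0.182 untreated and 0.0963 with EGF). The sample numbers of replicate 2 belong to series 1 at 4 h and to series 2 at 24 h. The additive block of the main fit takes a replicate number as shared across the times, and whether it is was not tested. The pairing within a time comes from the numbers in the labels.

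Named genes are members of the lists of receptors, ligands, inhibitors, immediate early and MAPK genes, the 10 genes of smallest p (since fewer than 10 were called), the 5 largest rises and 5 largest falls in MKN1 with a mean log2 CPM above 1 there, and MET and EGFR. The members and lists were chosen with earlier results of these data known.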

Additional observations from a re-analysis of the deposited data

Results flagged for a closer look

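The response to EGF differed between MKN1 and Hs746T cells for 3192 genes by the test of the difference over both times (edgeR). Among the genes of smallest p in Hs746T, the difference MKN1 minus Hs746T in log2FC was 0.52 for CPA4, -1.51 for BMF, 0.91 for SLC12A8, 0.52 for CLIP2, -0.44 for KLHL24 and -0.92 for CD79A. Among the genes with the largest changes in MKN1, it was 3.28 for SERPINB2, 2.88 for RGS4, 2.97 for HAS2, 2.53 for PRR9, 2.75 for ESM1, -2.37 for TNFSF10, -1.91 for RNF144B, -1.89 for TRMT9B and -1.65 for SAMD11. The MKN1 genes were picked for their change in MKN1, so the size of their differences and their passing of the test are in part set by that choice. Groups of 3 libraries were too small for the test for single outlying samples.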

How the results depend on the processing

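The number of genes called in Hs746T for both times was 2, and 5 with the replicate block per time, 0 with time as the only block, 9 with all 42 libraries and the block, 7 with DESeq2, 7 without a filter, 0 with a log2FC beyond 1 as well, 5 with the block and a length correction, 0 in the first and 7 in the second series of sample numbers, and 0 to 4 without 1 library or replicate. At 4 h the count of 0 became 921 with the block, 3 with all 42 libraries and the block, 24 with DESeq2, 598 without a filter, 1188 with the block and the length correction and 0 to 1512 without 1 library or replicate. At 24 h it became 7 with the block, 7 with all libraries and the block, 4 with DESeq2, 2 with library size alone, 12 without a filter, 2 with at least 10 counts in every library, 10 with the block and the length correction and 0 to 3 without 1 library or replicate. For 24 h minus 4 h it became 2 with the block, 1 with all libraries and the block, 1 with DESeq2, 57 without a filter and 6 with the block and the length correction. The cause of these differences was not tested. In MKN1 the count of 6713 became 4227 without the replicate block, 659 with a log2FC beyond 1 and 2665 to 3617 without 1 replicate number. The count of differences between the lines of 3192 became 953, 474 and 1083 to 1438. EGF + Cet against Cet gave 0 genes under every alternative run.

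The log2FC of FBXO32 over both times was -0.58 to -0.42 over 25 alternatives, called in 14 of them (adjusted p 7.7e-10 to 1), and CPA4 was called in 13. At 4 h, over 23 alternatives, DUSP6 was called in 6, HBEGF in 4, CXCL8, FOS and IER3 in 3 each and AREG in 1. EGR1 and SPRY2 were called in 0. DESeq2 gave no adjusted p at 4 h for AREG, CXCL8, FOS and EGR1. No named gene reversed past the threshold. The median distance from a log2FC over both times to the end of its 95% interval was 0.15, so smaller effects could not be told from 0 for many genes at this depth and replication. The length correction was chosen after seeing the data.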
